A study of Mus musculus with 8 samples.

Results

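Mature dendritic cell genes were examined as a set of 10 in peritoneal neutrophil preparations, of 49315 gene identifiers measured. The 10 genes are Ccl17, Ccl22, Ccr7, Flt3, Zbtb46, Fscn1, Cacnb3, Adcy6, Serpinb6b and Il4i1. They were picked because Fscn1, Cacnb3, Adcy6, Serpinb6b and Ccl22 are much higher in low-density libraries. Their difference between densities is therefore a description, with no test, and their differences between genotypes are tested. RNA sequencing was carried out on neutrophils of C57BL/6 mice, an inbred strain, aged 2 months, drawn into the peritoneal cavity with casein, a milk protein. The 4 groups, of 2 libraries each, were low-density cells of H2R deficient mice, low-density cells of wild-type mice, high-density cells of H2R deficient mice and high-density cells of wild-type mice. Strain, age and casein were shared by all groups. H2R is the histamine H2 receptor, a Gs-coupled receptor whose signal is cyclic AMP. The H2R deficient libraries carry the numbers 1 and 2 and the wild-type libraries the numbers 2 and 4. No label says that libraries of a group come from separate animals, so a p-value speaks of the variation among these libraries alone, and that variation may be technical.

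Dendritic cells take up antigen in tissues and present it to T cells in lymph nodes. When they mature they display the chemokine receptor CCR7, which leads them along CCL19 and CCL21 into lymphatic vessels, rebuild their actin skeleton, and secrete the chemokines CCL17 and CCL22, which attract T cells that bear CCR4. FLT3 and its ligand drive the development of the lineage, and ZBTB46 is a transcription factor of conventional dendritic cells. The peritoneal cavity holds dendritic cells beside macrophages, B cells and mast cells.

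Each library held between 19862716 and 24199215 counts, and levels in CPM are counts per 1e6 counts of the TMM-scaled library size. A count of 0 then allows up to 0.0830 to 0.191 CPM, at 3 counts per library and for counting error only. Hrh2, the targeted gene, had 435 and 215 counts in H2R deficient low-density libraries, against 556 and 830 in wild-type low-density libraries. It had 599 and 275 counts in H2R deficient high-density libraries, against 2003 and 700 in wild-type high-density libraries. Its difference between genotypes did not pass at low density (log2 fold change -1.48 ± 0.55 (SE), edgeR adjusted p = 0.196) or at high density (-1.60 ± 0.55, edgeR adjusted p = 0.192), and the labels do not say which part of the gene was deleted. The 15 neutrophil markers summed to 21801 and 30983 CPM in H2R deficient low-density, 35299.8 and 50319 CPM in wild-type low-density, 80829.9 and 82157 CPM in H2R deficient high-density and 74212 and 70255 CPM in wild-type high-density libraries. TMM factors were above 1 in all low-density and below 1 in all high-density libraries. Without them the all-gene median of the log2 fold change between densities moved to 1.0 in H2R deficient and 0.67 in wild-type libraries, against 0.10 in both with them.

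The 10 genes together held 612 and 889.8 CPM in H2R deficient low-density, 584 and 274 CPM in wild-type low-density, 11.6 and 16.3 CPM in H2R deficient high-density and 7.24 and 34.9 CPM in wild-type high-density libraries. Of the 10, 9 passed edgeR's filter on low counts and Il4i1 did not. Flt3 would not have passed on the high-density libraries alone, so for Flt3 the filter itself rests on the low-density groups. The low-density libraries lay wholly above the high-density libraries for 9 of these 9 genes in both genotypes. Of all tested genes, 43.9% lay wholly above and 37.2% wholly below in H2R deficient cells, and 35.1% wholly above and 27% wholly below in wild-type cells. By edgeR 54% of all tested genes were called between densities in H2R deficient and 12.7% in wild-type cells. At low density 30% rose and 23.9% fell in H2R deficient, and 8.51% rose and 4.15% fell in wild-type cells. Counts of rising and falling listed genes below stand beside these shares. Since the 10 genes were picked on the contrast between densities, nothing is read from their count. In bulk RNA the type of cell that gave the reads, the number of such cells and the RNA per cell cannot be told apart.

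**Figure D1:**
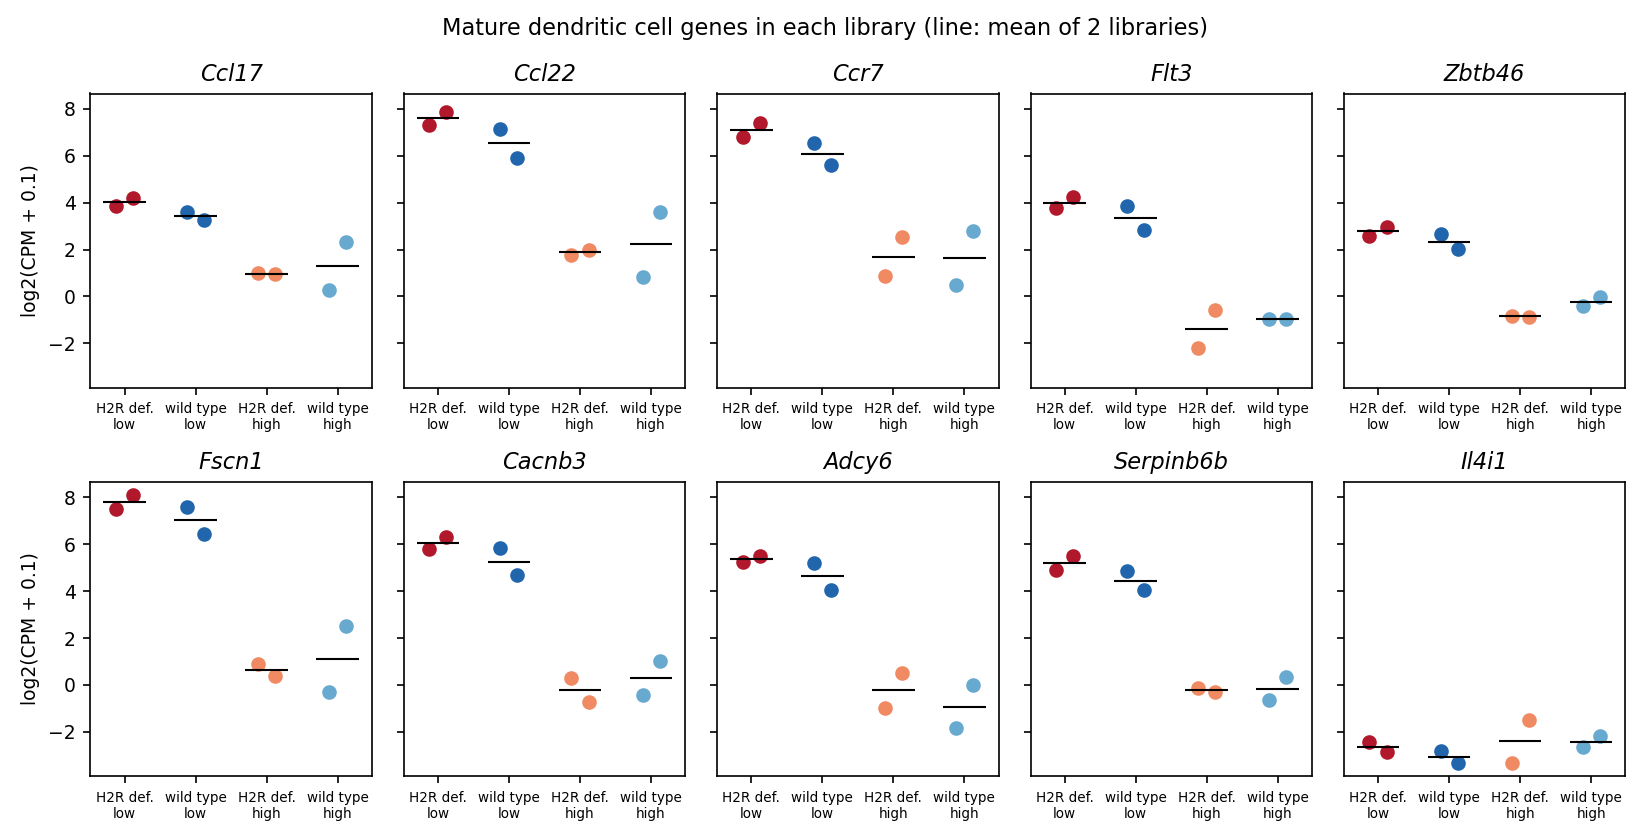
Level of each of the 10 genes on a log2 CPM scale with a small constant added (vertical axis) in the 8 libraries (points), with the mean of each group of 2 as a line; groups run from H2R deficient low density to wild-type high density. For 9 genes every low-density point lies above every high-density point, and Il4i1 lies near the lowest values in all libraries.

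Ccl17 and Ccl22 encode chemokine ligands of CCR4 and lie close together on chromosome 8 of GRCm38. Ccl22 (ENSMUSG00000031779) lies at 94745590 to 94751699 and Ccl17 (ENSMUSG00000031780) at 94810453 to 94812036, both on the plus strand. They are 58754 bases apart, with 2 genes between them, of which 1 is Cx3cl1, another chemokine. Ccl22 stood at 161 and 236 CPM in H2R deficient low-density libraries and at 141 and 60.4 CPM in wild-type low-density libraries. It stood at 3.33 and 3.83 CPM in H2R deficient high-density libraries and at 1.65 and 12.2 CPM in wild-type high-density libraries. All low-density libraries were above all high-density ones, and wild-type library 4 was the highest at high density. The log2 fold change of low against high density was 5.79 ± 0.95 (SE) in H2R deficient and 3.86 ± 0.86 in wild-type cells, ranks 185 and 224 of 14909 genes from the most positive. In wild-type cells it was 5.93 with high-density library 4 left out and 3.04 with library 2 left out.

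Ccl17 stood at 14.4 and 18.5 CPM in H2R deficient low-density libraries and at 11.98 and 9.35 CPM in wild-type low-density libraries. Its high-density values were 1.87 and 1.85 CPM in H2R deficient and 1.12 and 4.896 CPM in wild-type libraries. The fitted density difference of Ccl17 was the smallest of the 9, at 3.14 ± 0.55 on the log2 scale in H2R deficient and 1.82 ± 0.52 in wild-type cells. The wild-type value was 3.24 with high-density library 4 left out and 1.12 with library 2 left out. Per length Ccl17 had the highest mean of the 10 genes in high-density libraries, at 6.89 ± 0.275 TPM in H2R deficient and 11.9 ± 10.6 TPM in wild-type cells (SD, n = 2 each). Cx3cl1 had 11 and 16 counts in H2R deficient low-density, 14 and 13 in wild-type low-density, 1 and 0 in H2R deficient high-density and 1 and 0 in wild-type high-density libraries, so all its high-density values were under the floor of 3 counts.

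Promoters are shown for both chemokines and for Fscn1, the gene with the largest density difference of the 9 tested in H2R deficient cells, because these genes are high in the same libraries. Each window runs from 250 bases before to 50 after a RefSeq start site on GRCm38.p6, 5′ to 3′ on the plus strand, and capitals mark matches to the motifs searched on both strands.
Ccl22 (chr8:94745434-94745733): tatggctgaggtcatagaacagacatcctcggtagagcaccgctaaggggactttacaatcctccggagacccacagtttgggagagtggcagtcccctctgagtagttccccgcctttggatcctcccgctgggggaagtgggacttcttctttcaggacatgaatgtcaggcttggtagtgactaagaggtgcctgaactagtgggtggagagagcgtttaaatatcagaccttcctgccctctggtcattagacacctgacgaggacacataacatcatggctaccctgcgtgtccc
Ccl17 (chr8:94810203-94810502): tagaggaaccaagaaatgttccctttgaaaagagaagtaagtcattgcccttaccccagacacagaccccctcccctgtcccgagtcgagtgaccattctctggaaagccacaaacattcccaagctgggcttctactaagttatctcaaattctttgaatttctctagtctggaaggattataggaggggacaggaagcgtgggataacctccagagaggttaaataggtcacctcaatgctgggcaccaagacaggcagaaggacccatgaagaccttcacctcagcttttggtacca
Fscn1 (chr5:142960105-142960404): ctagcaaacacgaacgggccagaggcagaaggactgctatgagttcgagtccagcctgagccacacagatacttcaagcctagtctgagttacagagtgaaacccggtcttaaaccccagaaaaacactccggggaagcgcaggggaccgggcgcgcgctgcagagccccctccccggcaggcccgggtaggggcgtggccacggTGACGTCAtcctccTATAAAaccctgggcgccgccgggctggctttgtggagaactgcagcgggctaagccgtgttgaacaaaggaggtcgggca
The Fscn1 window holds a cyclic AMP response element, TGACGTCA, whose first base lies at position -45 from the start site, and a TATAAA whose first base lies at position -31. Of 32544 RefSeq promoters of the same length, 1.80% held TGACGTCA and 13.6% held TATAAA, and these motifs were added to the search after the Fscn1 promoter had been read. The Ccl22 and Ccl17 windows held no match to these, to the kappaB motif (8.49% of promoters), to AP-1 TGANTCA (7.79%), to the interferon regulatory factor motif (3.45%) or to PU.1 GAGGAAGT (3.11%). Of the 8 genes of the set with a promoter in the table, Zbtb46 held the AP-1 and Il4i1 the PU.1 motif. A match is a stretch of letters and not a measured site.

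Ccr7 (ENSMUSG00000037944, chromosome 11, 99144196 to 99155077, minus strand) encodes the receptor that guides mature dendritic cells to lymph nodes. It stood at 111 and 167 CPM in H2R deficient low-density libraries and at 93.3 and 47.99 CPM in wild-type low-density libraries. In high-density libraries it stood at 1.75 and 5.61 CPM in H2R deficient and 1.296 and 6.84 CPM in wild-type cells. The low-density libraries were all higher, and at high density the genotypes overlapped. Its density difference was 5.25 ± 0.87 in H2R deficient and 4.12 ± 0.83 in wild-type cells on the log2 scale. The H2R deficient value was 6.31 when high-density library 2 was left out and 4.64 when library 1 was, and the wild-type value 5.76 when high-density library 4 was left out and 3.37 when library 2 was. The ligands of CCR7 among the listed genes, Ccl19, Ccl21a and Ccl21b, had 0 counts in all 8 libraries. Ccr4, which encodes the receptor for CCL17 and CCL22, had 21 and 21 counts in H2R deficient low-density, 30 and 97 in wild-type low-density, 1 and 0 in H2R deficient high-density and 0 and 8 in wild-type high-density libraries. Ccr4 was thus highest in wild-type low-density library 4, the low-density library with the least Ccr7.

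Flt3 (ENSMUSG00000042817, chromosome 5, 147330741 to 147400489, minus strand) encodes a receptor tyrosine kinase of dendritic cell progenitors and dendritic cells. It stood at 13.5 and 18.6 CPM in H2R deficient low-density libraries and at 14.4 and 7.0004 CPM in wild-type low-density libraries. In high-density libraries it had 2 and 9 counts in H2R deficient and 7 and 7 counts in wild-type cells, close to the floor. Its density difference of 5.55 ± 0.58 in H2R deficient and 4.68 ± 0.56 in wild-type cells rests on these few reads. The H2R deficient value was 7.04 when high-density library 2 was left out and 4.802 when library 1 was. Flt3l, which encodes its ligand, stood at 4.04 and 6.43 CPM in H2R deficient low-density, 4.09 and 4.34 CPM in wild-type low-density, 1.69 and 3.699 CPM in H2R deficient high-density and 2.83 and 2.36 CPM in wild-type high-density libraries. The ligand gene did not pass in H2R deficient (0.96 ± 0.39, edgeR adjusted p = 0.0617) or wild-type cells (0.70 ± 0.39, edgeR adjusted p = 0.238).

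Zbtb46 (ENSMUSG00000027583, chromosome 2, 181387762 to 181459426, minus strand) encodes the zinc finger factor that marks conventional dendritic cells. It stood at 5.95 and 7.73 CPM in H2R deficient low-density, 6.23 and 3.91 CPM in wild-type low-density, 0.467 and 0.446 CPM in H2R deficient high-density and 0.648 and 0.885 CPM in wild-type high-density libraries. Its density difference was 3.89 ± 0.39 in H2R deficient and 2.72 ± 0.37 in wild-type cells on the log2 scale, ranks 629 and 550 of 14909 genes. Of 6 related zinc finger genes tested, 3 rose and 2 fell with low density in H2R deficient and 2 rose and 0 fell in wild-type cells. That is 50% and 33.3% in H2R deficient cells, against 30% and 23.9% of all tested genes. In wild-type cells it is 33.3% and 0%, against 8.51% and 4.15%. Zbtb32 rose most clearly, by 4.44 ± 0.43 (edgeR adjusted p = 0.000208) in H2R deficient and 2.84 ± 0.42 (edgeR adjusted p = 0.00857) in wild-type cells. Of these genes 0 fell in H2R deficient cells when high-density library 1 was left out and 1 when either low-density library was. The wild-type number that rose was 0 when high-density library 2 was left out and 1 when high-density library 4, either wild-type low-density library or either H2R deficient low-density library was.

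Fscn1 (ENSMUSG00000029581, chromosome 5, 142960343 to 142973185, plus strand) encodes fascin, which bundles actin in the extensions of mature dendritic cells. It stood at 182 and 272 CPM in H2R deficient low-density libraries and at 196 and 86.9 CPM in wild-type low-density libraries. In high-density libraries it stood at 1.75 and 1.21 CPM in H2R deficient and 0.707 and 5.54 CPM in wild-type cells. The values at low density did not overlap those at high density, and wild-type library 4 was the highest at high density. Its density difference of 7.25 ± 0.94 in H2R deficient and 5.496 ± 0.86 in wild-type cells ranked 46 and 91 of 14909 genes. The wild-type value was 7.63 when high-density library 4, with 94 Fscn1 counts, was left out and 4.67 when library 2, with 12, was. Fscn2, the other fascin gene tested, stood at 0.332 and 0.6003 CPM in H2R deficient low-density, 0.567 and 1.17 CPM in wild-type low-density, 0.3502 and 1.47 CPM in H2R deficient high-density and 2.002 and 2.48 CPM in wild-type high-density libraries, and did not pass in either genotype.

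Cacnb3 (ENSMUSG00000003352, chromosome 15, 98632220 to 98644530, plus strand) encodes a beta subunit of voltage-gated calcium channels. It stood at 55.5 and 79.4 CPM in H2R deficient low-density, 56.4 and 25.5 CPM in wild-type low-density, 1.11 and 0.5102 CPM in H2R deficient high-density and 0.648 and 1.95 CPM in wild-type high-density libraries. Its density difference was 6.36 ± 0.63 in H2R deficient and 4.98 ± 0.59 in wild-type cells on the log2 scale, ranks 118 and 115 of 14909 genes. The H2R deficient value was 7.04 when high-density library 1 was left out, and the wild-type value was 4.39 when high-density library 2 was, 5.97 when library 4 was and 4.29 when low-density library 2 was. Of the 3 other beta subunit genes, 1 rose and 1 fell in H2R deficient cells and 0 passed in wild-type cells. Over all tested genes 30% rose and 23.9% fell in H2R deficient cells. Cacnb1 rose by 2.07 ± 0.40 (edgeR adjusted p = 0.00248) in H2R deficient cells and was at 0.54 ± 0.38 in wild-type cells. Cacnb2 fell in H2R deficient cells (-1.47 ± 0.54, edgeR adjusted p = 0.0442), and 0 beta subunit genes fell when any 1 of the 8 libraries was left out. Cacna1e, which encodes a pore-forming channel subunit, rose by 3.98 ± 0.58 (edgeR adjusted p = 0.00111) in H2R deficient and 2.42 ± 0.54 (edgeR adjusted p = 0.0304) in wild-type cells.

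Adcy6 (ENSMUSG00000022994, chromosome 15, 98589994 to 98607633, minus strand) encodes an adenylyl cyclase, an enzyme that makes cyclic AMP and is stimulated by Gs. It stood at 38.2 and 45.1 CPM in H2R deficient low-density libraries and at 36.5 and 16.6 CPM in wild-type low-density libraries. In high-density libraries it held 7 and 21 counts in H2R deficient and 3 and 15 counts in wild-type cells, so wild-type library 2 was at the floor. Its density difference was 5.59 ± 0.65 in H2R deficient and 5.63 ± 0.69 in wild-type cells, and in the other 8 tested genes of the set the wild-type value was the smaller. The H2R deficient value was 4.96 when high-density library 1 was left out and 6.66 when library 2 was. The wild-type value was 4.899 when high-density library 2 was left out, 7.19 when library 4 was and 4.954 when low-density library 2 was. Adcy6 shares 601 of 6017 exonic bases with an antisense gene, Gm29331, and the sources used here do not give the strand setting of the counting. Of 4 other adenylyl cyclase genes tested, 2 rose and 1 fell in H2R deficient cells and 0 passed in wild-type cells, and 1 rose when any 1 H2R deficient library was left out. None fell there when H2R deficient high-density library 2 or any 1 low-density library of either genotype was left out. Adcy7 rose by 0.99 ± 0.23 (edgeR adjusted p = 0.00582) in H2R deficient cells and was at 0.43 ± 0.23 in wild-type cells. Over all tested genes 30% rose and 23.9% fell in H2R deficient cells, so the count of adenylyl cyclase genes there is not read as a result.

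Serpinb6b (ENSMUSG00000042842, chromosome 13, 32965209 to 32979067, plus strand) encodes an intracellular serpin, a protease inhibitor. It stood at 29.5 and 45.6 CPM in H2R deficient low-density, 28.7 and 16.5 CPM in wild-type low-density, 0.817 and 0.702 CPM in H2R deficient high-density and 0.53002 and 1.18 CPM in wild-type high-density libraries. Its density difference was 5.61 ± 0.45 in H2R deficient and 4.71 ± 0.44 in wild-type cells on the log2 scale. Of its stretches of 50 bases, 2.92% also occur in Serpinb6a, Serpinb6c or Gm8436. Of 5 relatives tested, 3 rose and 1 fell in H2R deficient and 2 rose and 0 fell in wild-type cells. That is 60% and 20% in H2R deficient cells, against 30% and 23.9% of all tested genes. In wild-type cells it is 40% and 0%, against 8.51% and 4.15%. In the wild type 1 rose when high-density library 2 was left out and 0 when low-density library 2 was. Serpinb9, which encodes an inhibitor of granzyme B, stood at 31.1 and 53.2 CPM in H2R deficient low-density, 33.97 and 22.996 CPM in wild-type low-density, 0.467 and 1.15 CPM in H2R deficient high-density and 0.648 and 2.71 CPM in wild-type high-density libraries. It rose by 5.71 ± 0.66 (edgeR adjusted p = 0.00048) in H2R deficient and 4.08 ± 0.60 (edgeR adjusted p = 0.0106) in wild-type cells. Serpinb6a was at 0.95 ± 0.30 (edgeR adjusted p = 0.0262) in H2R deficient and 0.70 ± 0.30 (edgeR adjusted p = 0.136) in wild-type cells.

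Il4i1 (ENSMUSG00000074141, chromosome 7, 44816387 to 44840809, plus strand) encodes a secreted amino acid oxidase. It had 3 and 1 counts in H2R deficient low-density, 1 and 0 in wild-type low-density, 0 and 4 in H2R deficient high-density and 1 and 2 in wild-type high-density libraries. These values sit around the floor in all groups, and no fold change is given. Of its 4080 exonic bases 86.3% are shared with other genes, 3423 of them with Tbc1d17 on the opposite strand, and the sources used here do not say how reads in shared bases were counted.

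Per length, Ccl22, Fscn1 and Ccr7 had the highest levels in low-density cells. Ccl22 averaged 317 ± 54.5 TPM in H2R deficient and 141 ± 90.5 TPM in wild-type low-density libraries (SD, n = 2 each). Fscn1 averaged 279.6 ± 51.9 TPM in H2R deficient and 153 ± 94.96 TPM in wild-type low-density libraries, and Ccr7 averaged 261 ± 48.2 and 116 ± 62.01 TPM in the same groups. The SD holds a difference between libraries that these genes shared, so it does not order them. Ccl22 was above Fscn1 in both H2R deficient and below it in both wild-type low-density libraries. Ccr7 was below both genes in every low-density library. Ccl17 followed at 119 ± 8.998 TPM in H2R deficient and 66.4 ± 17.7 TPM in wild-type low-density libraries. Below it in H2R deficient low-density libraries came Cacnb3 at 80.4 ± 12.4, Serpinb6b at 63.3 ± 13.1, Adcy6 at 25.9 ± 0.485, Flt3 at 9.69 ± 1.25 and Zbtb46 at 2.999 ± 0.261 TPM. The order from Ccr7 down to Zbtb46 was the same in both H2R deficient and both wild-type low-density libraries. For each of these genes wild-type library 2 was above library 4, which widened the wild-type SDs.

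Within low-density cells the proportions between these genes varied less than their levels. Fscn1 varied 3.13-fold in CPM over the 4 low-density libraries. Cacnb3 had 30.6 and 29.2 counts per 100 Fscn1 counts in H2R deficient and 28.9 and 29.4 in wild-type low-density libraries, a 1.06-fold range. The exact 95% binomial intervals, which cover counting error only, overlapped between all 4 libraries, the widest running over 26.9 to 32.05 in wild-type library 4. Flt3 spanned 1.18-fold, Adcy6 1.27-fold, Ccr7 and Serpinb6b 1.29-fold, Zbtb46 1.58-fold and Ccl17 1.76-fold on this scale. Ccl22 had 88.6 and 86.8 counts per 100 Fscn1 counts in H2R deficient and 72.01 and 69.6 in wild-type low-density libraries, and the intervals of the genotypes did not overlap. These intervals leave out the variation between libraries, and the ratio was not tested between genotypes. Cd79a, a B cell receptor chain, spanned 2.25-fold and Mrc1, a macrophage receptor, 3.91-fold. Cd79a had 4234 and 3758 counts in H2R deficient and 1453 and 635 in wild-type low-density libraries. Its proportion to Fscn1 thus also varied less than its level. Outside the set, Cd200 spanned 1.33-fold, Net1 1.53-fold and Serpinb9 1.55-fold, within the range of the set's own genes. Fscn1 as the denominator and these other genes were chosen after their values were seen.

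In high-density cells the proportions of Ccl17, Ccl22, Ccr7, Zbtb46, Serpinb6b and Cacnb3 to Fscn1 were higher in all 4 libraries. Fscn1 had the largest density difference of the tested genes of the set in H2R deficient cells, and only Adcy6 exceeded it in wild-type cells. A gene that rises less than Fscn1 has a higher ratio to it at high density. Ccl17 had 107 and 153 counts per 100 Fscn1 counts in H2R deficient high-density libraries (intervals 62.8 to 182 and 82.7 to 288) and 158 and 88.3 in wild-type high-density libraries (72.97 to 358 and 64.9 to 119.9). In low-density libraries the ratio was 7.95 and 6.79 in H2R deficient and 6.13 and 10.8 in wild-type cells, below all of those intervals. Ccl22 had 190.0 and 316 counts per 100 Fscn1 counts in H2R deficient and 233 and 220.2 in wild-type high-density libraries, and the 95% intervals of these values also lay above its low-density values. So did those of Zbtb46, at 15.96 to 91.7 in high-density against 2.84 to 4.50 in low-density libraries. Ccr7 ran over 100 to 463 against 47.7 to 61.3, and Serpinb6b over 21.3 to 75 against 14.7 to 18.96. Some intervals of Ccr7 and Serpinb6b reached their low-density values. Cacnb3 had 63.3 and 42.1 in H2R deficient high-density libraries (intervals 33.7 to 116 and 15.9 to 101) and 91.7 and 35.1 in wild-type high-density libraries (36.6 to 227 and 22.9 to 52.7), from as few as 8 Cacnb3 and 12 Fscn1 counts. The intervals of H2R deficient library 2 and wild-type library 4 held its low-density values. Adcy6 had 23.3 and 111 counts per 100 Fscn1 counts in H2R deficient and 25 and 15.96 in wild-type high-density libraries, against 21.04 and 16.6 in H2R deficient and 18.7 and 19.1 in wild-type low-density libraries. Flt3 had 6.67 and 47.4 in H2R deficient and 58.3 and 7.45 in wild-type high-density libraries, against 7.43 and 6.85 in H2R deficient and 7.37 and 8.06 in wild-type low-density libraries. In some high-density libraries both genes thus lay at or near their low-density proportion. These ratios carry no test, since the denominator was picked for its difference between densities.

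**Figure D2:**
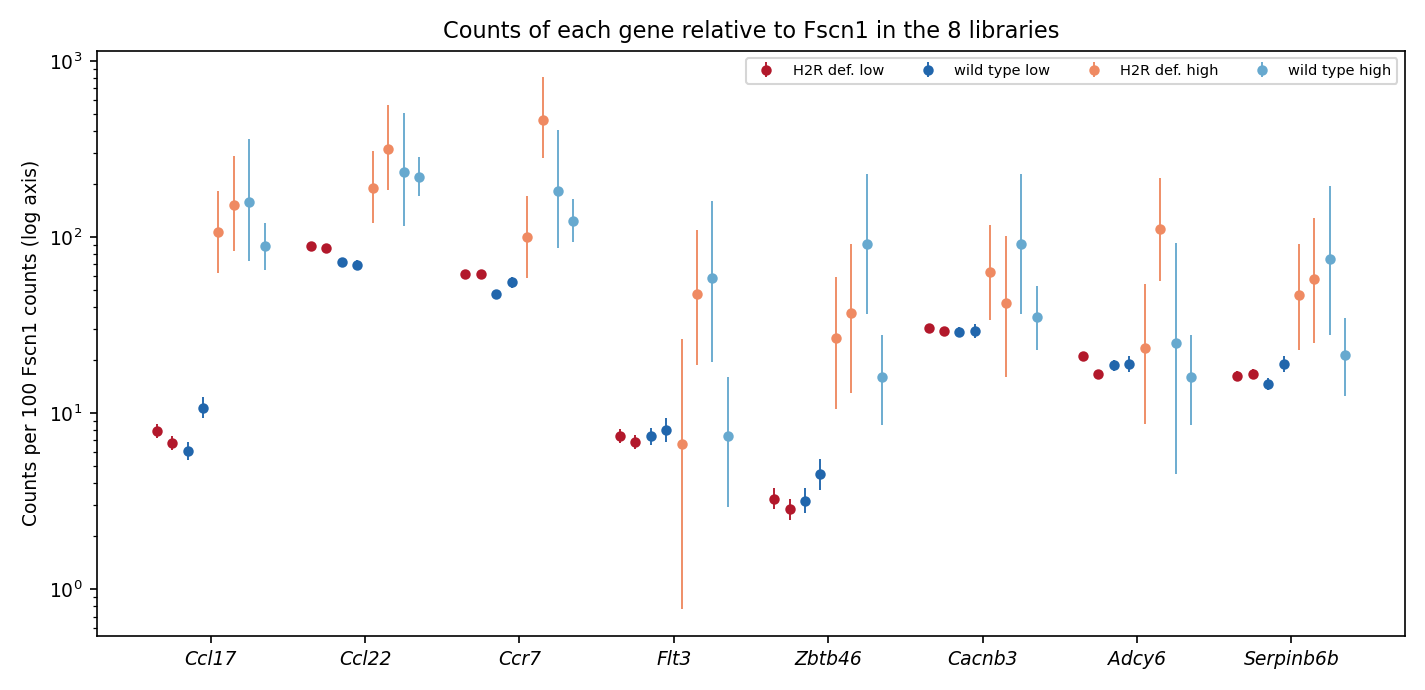
Counts of 8 genes per 100 Fscn1 counts (log axis) in each of the 8 libraries, from H2R deficient low density on the left of each gene to wild-type high density on the right; bars are exact 95% binomial intervals. The 4 low-density points of Cacnb3 lie close together. For Ccl17, Ccl22, Ccr7, Zbtb46, Cacnb3 and Serpinb6b the points of high-density libraries lie above those of low-density libraries.

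The genotype comparison asks whether cells labelled H2R deficient differed in these genes within a density. In low-density cells all 9 tested genes had a higher fitted value in H2R deficient libraries, and none passed. Over all tested genes 53.1% had a higher fitted value. The 9 genes varied together over these libraries, so their signs are not separate observations. The median log2 fold change was 0.68, against 0.05 over all tested genes, and values ran between 0.43 and 0.98. By edgeR 0 of 9 passed, as did 0% of all genes tested. At an unadjusted p under 0.05 stood 0 of the 9, and 21.0% of all tested genes. DESeq2 and limma-voom also called 0 of the 9, with 1 each at an unadjusted p under 0.05. Ccl22 averaged 199 ± 53.2 CPM in H2R deficient and 101 ± 56.9 CPM in wild-type low-density libraries (SD, n = 2 each), a difference of 0.98 ± 0.75 (edgeR adjusted p = 0.489). Fscn1 averaged 227 ± 63.8 CPM in H2R deficient and 141 ± 76.9 CPM in wild-type low-density libraries, a difference of 0.68 ± 0.68 (edgeR adjusted p = 0.597).

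The smallest adjusted p belonged to Serpinb6b, at 37.6 ± 11.4 CPM in H2R deficient and 22.6 ± 8.62 CPM in wild-type low-density libraries, with a difference of 0.73 ± 0.33 (edgeR adjusted p = 0.242). It passed when no filter on low counts was applied (0.76, edgeR adjusted p = 0.0289), a setting under which 631 genes of the whole table were called higher and 729 lower. Ccl17 was at 0.63 ± 0.47, Ccr7 at 0.98 ± 0.71, Flt3 at 0.59 ± 0.40, Zbtb46 at 0.43 ± 0.31, Cacnb3 at 0.72 ± 0.45 and Adcy6 at 0.65 ± 0.48, with edgeR adjusted p-values between 0.391 and 0.473. Wild-type low-density libraries 2 and 4 differed from each other 1.28-fold to 2.33-fold in these genes, and H2R deficient low-density libraries 1 and 2 differed 1.18-fold to 1.54-fold. Both H2R deficient libraries were above both wild-type libraries for 5 of the 9, Ccl17, Ccl22, Ccr7, Adcy6 and Serpinb6b, as they were for 33.5% of all tested genes. For Flt3, Zbtb46, Fscn1 and Cacnb3 wild-type library 2 lay above H2R deficient library 1. Leaving out wild-type low-density library 4 gave a difference of 0.19 for Fscn1 and 0.47 for Ccl22, and leaving out library 2 gave 1.39 and 1.72.

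B cell and neutrophil markers differed between the same libraries. The 13 B cell markers summed to 904 and 1148 CPM in H2R deficient and 513 and 234 CPM in wild-type low-density libraries, so their order over the 4 libraries was that of the summed 10 genes. By edgeR 0 of the 13 passed between genotypes, with 13 at an unadjusted p under 0.05 and a median difference of 1.39. At that unadjusted level stood 21.0% of all tested genes. Neutrophil markers ran the other way, at 21801 and 30983 CPM in H2R deficient and 35299.8 and 50319 CPM in wild-type low-density libraries, with a median difference of -0.71. Of 15 neutrophil markers 0 passed by edgeR and 11 stood at an unadjusted p under 0.05. The part of B cell and neutrophil markers in the differences of the dendritic cell genes was not tested.

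In high-density cells most fitted values had the opposite sign, and for 6 genes the sign turned when 1 wild-type library was left out. By edgeR 0 of 9 passed, where 0.208% of all tested genes did (0.0201% higher and 0.188% lower), and 0 were at an unadjusted p under 0.05. DESeq2 and limma-voom called 0 of the 9. Over all tested genes 46.6% had a fitted difference above 0. In the set the fitted difference was below 0 for 8 genes and above 0 for Adcy6, with a median of -0.66 against -0.05 over all genes. It ran between -1.07 ± 0.93 for Fscn1 (edgeR adjusted p = 0.571) and 0.69 ± 0.86 for Adcy6 (edgeR adjusted p = 0.699). Zbtb46 was lower in both H2R deficient libraries than in both wild-type libraries, as 25.8% of all tested genes were, with a difference of -0.74 ± 0.44 (edgeR adjusted p = 0.402). For 0 of the 9 genes were both H2R deficient libraries above both wild-type ones, and 21.1% of all tested genes were so.

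When wild-type high-density library 4 was left out, Fscn1 stood at 1.07, Ccl22 at 1.11, Ccr7 at 1.49, Ccl17 at 0.73, Serpinb6b at 0.51 and Cacnb3 at 0.33, all above 0. That library exceeded library 2 by 7.85-fold in Fscn1, 7.41-fold in Ccl22 and 5.28-fold in Ccr7, and by 1.37-fold in Zbtb46. Its 13 mesothelial and stromal markers summed to 165 CPM against 50.8 CPM in library 2. Its conventional dendritic cell markers summed to 695 against 613 CPM and its B cell markers to 79.2 against 71.7 CPM. Their part in its higher values was not tested.

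**Figure D3:**
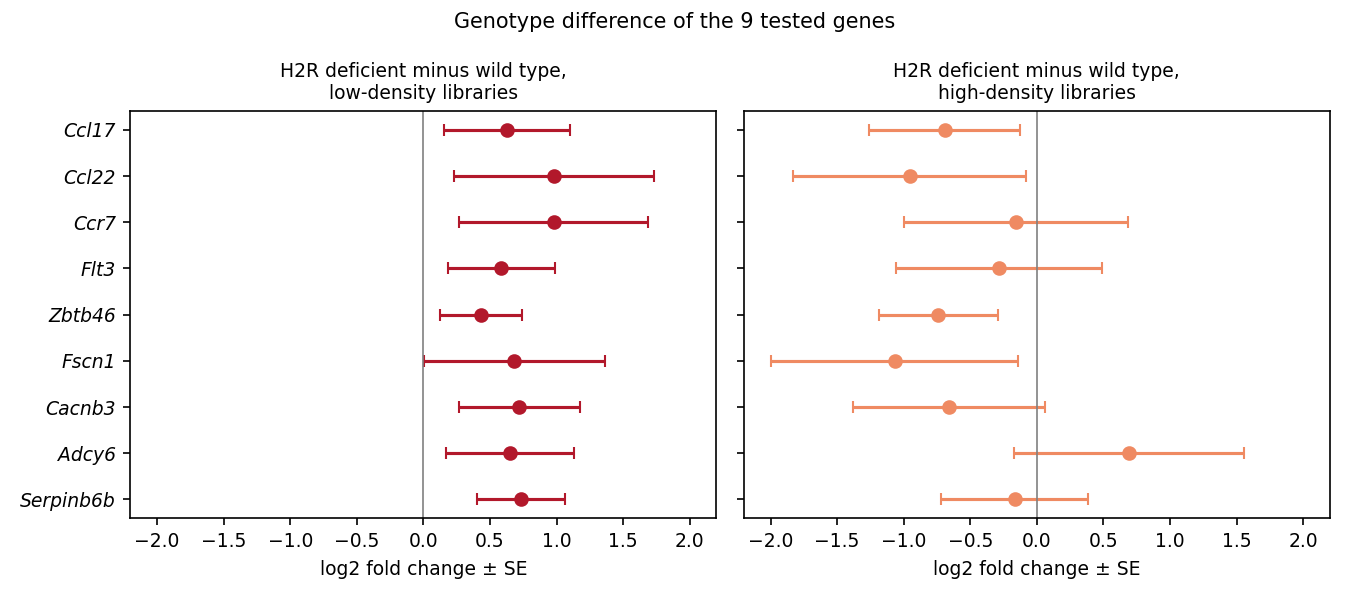
Log2 fold change of H2R deficient against wild-type cells with its SE for the 9 tested genes, in low-density libraries (left) and high-density libraries (right). All 9 points lie between 0.43 and 0.98 at low density, and 8 of 9 lie below 0 at high density; none passed the test.

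For the interaction of genotype and density, the H2R deficient density difference minus the wild-type one, 8 fitted values were above 0 and that of Adcy6 was -0.04. Over all tested genes 52.0% were above 0. The median of the 9 was 1.17, against 0.04 over all genes. By edgeR 0 of 9 passed, as did 0% of all genes tested, and 0 were at an unadjusted p under 0.05. DESeq2 and limma-voom called 0 of the 9, with 1 and 0 at that level. The highest value was that of Ccl22, at 1.94 ± 1.15 (edgeR adjusted p = 0.385), and the smallest adjusted p that of Zbtb46, at 1.17 ± 0.54 (edgeR adjusted p = 0.252). With no filter on low counts Ccl17 passed (1.38, edgeR adjusted p = 0.0293). Under that setting 901 genes of the whole table were called higher and 309 lower, of 28092 tested. When wild-type high-density library 4 was left out, Ccl22 was at -0.13, Ccl17 at -0.10, Ccr7 at -0.51 and Fscn1 at -0.38, all below 0.

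Other genes of mature dendritic cells did not move as one with density. Of 63 further listed genes, 60 were tested. In H2R deficient cells 25 rose and 21 fell with low density, where 30% and 23.9% of all tested genes did, and the median of the list was 0.34 against 0.10 over all genes. In wild-type cells 16 rose and 9 fell, where 8.51% and 4.15% of all genes did, with a median of 0.03 against 0.10. With total counts only, 32 rose and 1 fell in H2R deficient and 25 rose and 1 fell in wild-type cells, so the falls are relative to the scaling. Over all genes 7690 were then called higher and 387 lower in H2R deficient and 4822 higher and 124 lower in wild-type cells. In wild-type cells 4 of the listed genes rose and 1 fell when high-density library 2 was left out, 5 rose and 0 fell when low-density library 2 was, and 14 rose and 0 fell when low-density library 4 was.

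Costimulatory and checkpoint genes, through which dendritic cells engage T cells, rose in 6 and fell in 3 of 14 cases in H2R deficient cells, and rose in 5 and fell in 1 in wild-type cells. That is 42.9% and 21.4% in H2R deficient cells, near the 30% and 23.9% of all tested genes. In wild-type cells it is 35.7% and 7.14%, against 8.51% and 4.15%. Cd40, a receptor for T cell help, stood at 19.5 and 31.8 CPM in H2R deficient low-density, 20.8 and 11.1 CPM in wild-type low-density, 1.63 and 2.168 CPM in H2R deficient high-density and 2.83 and 4.84 CPM in wild-type high-density libraries. It rose by 3.75 ± 0.43 (edgeR adjusted p = 0.000334) in H2R deficient and 2.06 ± 0.40 (edgeR adjusted p = 0.0185) in wild-type cells. Cd200, an inhibitory ligand, rose by 5.73 ± 0.65 in H2R deficient and 3.41 ± 0.56 in wild-type cells, Tnfrsf9, which encodes 4-1BB, by 2.48 ± 0.30 and 2.14 ± 0.30, and Cd83, a maturation marker, by 2.34 ± 0.33 and 1.45 ± 0.32. In wild-type cells 1 of the 14 rose when either high-density library 2 or low-density library 2 was left out. Cytokine genes rose in 4 and fell in 3 of 9 cases in H2R deficient cells, and rose in 2 and fell in 0 in wild-type cells. Beside the same all-gene shares, these are 44.4% and 33.3% in H2R deficient and 22.2% and 0% in wild-type cells. Ccl5, a chemokine for T cells, rose by 4.13 ± 0.42 (edgeR adjusted p = 0.000235) in H2R deficient and 3.02 ± 0.41 (edgeR adjusted p = 0.00645) in wild-type cells. Il6 rose in H2R deficient cells (1.701 ± 0.46, edgeR adjusted p = 0.0135) and was at -0.48 ± 0.44 in wild-type cells. Ebi3, a subunit of interleukin 27, fell in H2R deficient cells (-0.77 ± 0.19, edgeR adjusted p = 0.00873) and was at -0.31 ± 0.19 in wild-type cells. Of the cytokine genes, 2 rose in H2R deficient cells when high-density library 1 or low-density library 2 of that genotype was left out, 1 fell there when any 1 of its libraries was, and 0 rose in wild-type cells when high-density library 2 was. Leaving out wild-type low-density library 2 or either H2R deficient low-density library gave 1 there.

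NF-κB and survival genes, which neutrophils also express, ran against the 10 genes. Of 11 tested, 1 rose and 9 fell in H2R deficient and 0 rose and 4 fell in wild-type cells, while with total counts only 1 rose and 0 fell in each genotype. Relb, the NF-κB subunit used in dendritic cell maturation, stood at 177 and 173 CPM in H2R deficient low-density, 168 and 188 CPM in wild-type low-density, 363 and 317 CPM in H2R deficient high-density and 299.6 and 285 CPM in wild-type high-density libraries. Its difference was -0.95 ± 0.17 (edgeR adjusted p = 0.00162) in H2R deficient and -0.72 ± 0.17 (edgeR adjusted p = 0.0289) in wild-type cells. Nfkb2 was at -0.95 ± 0.17 in H2R deficient and -0.64 ± 0.17 in wild-type cells, and Birc3, an inhibitor of apoptosis, at -0.99 ± 0.19 and -0.94 ± 0.19. In wild-type cells 0 of the 11 fell when high-density library 2 or either low-density library was left out, and 2 fell when either H2R deficient low-density library was.

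Of 26 other mature dendritic cell genes tested, 14 rose and 6 fell in H2R deficient and 9 rose and 4 fell in wild-type cells. That is 53.8% and 23.1% in H2R deficient cells, against 30% and 23.9% of all tested genes. In wild-type cells it is 34.6% and 15.4%, against 8.51% and 4.15%. Socs2, a suppressor of cytokine signalling, stood at 20.2 and 29.1 CPM in H2R deficient low-density, 18.2 and 14.3 CPM in wild-type low-density, 0.584 and 0.957 CPM in H2R deficient high-density and 1.88 and 2.71 CPM in wild-type high-density libraries. It rose by 4.999 ± 0.35 (edgeR adjusted p = 0.000159) in H2R deficient and 2.82 ± 0.30 (edgeR adjusted p = 0.00315) in wild-type cells. Aldh1a2, which makes retinoic acid, rose by 5.39 ± 0.45 in H2R deficient and 2.72 ± 0.39 in wild-type cells, and Net1, an exchange factor for RhoA, by 4.81 ± 0.48 and 3.68 ± 0.45. In wild-type cells 3 of the 26 rose when either high-density library 2 or low-density library 2 was left out; 0 fell when any of these or low-density library 4 was, and 1 fell when high-density library 4 was. Between genotypes at low density 0 of the 60 genes passed by edgeR, with 8 at an unadjusted p under 0.05 and 2 called higher by DESeq2. At that unadjusted level stood 21.0% of all tested genes, and DESeq2 called 394 genes of the whole table higher and 472 lower. These counts are therefore not read as a result.

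**Figure D4:**
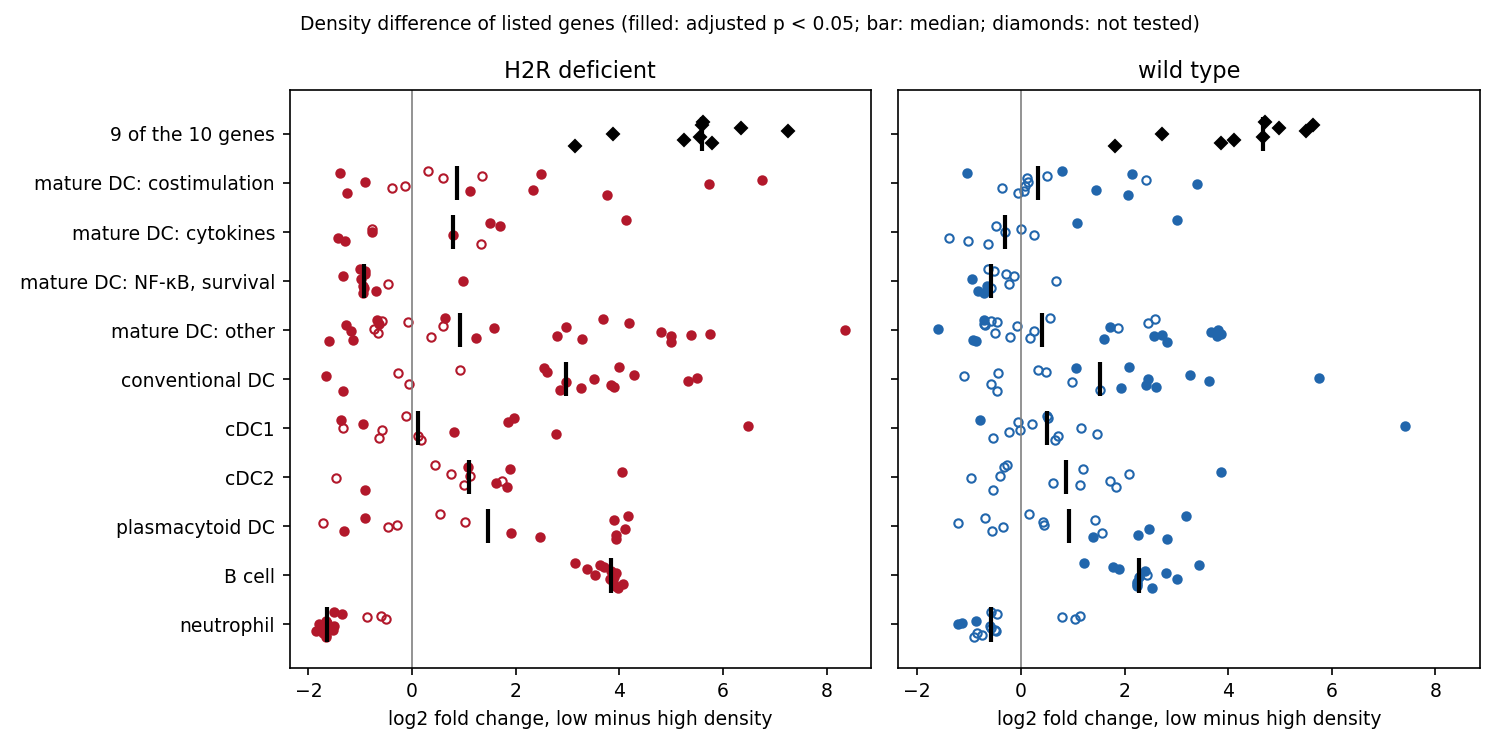
Log2 fold change of low against high density for the genes of each list, in H2R deficient cells (left) and wild-type cells (right); filled points passed the test, vertical bars are list medians, and diamonds are the 9 genes described above, which were not tested here. Costimulatory genes are spread on both sides of 0, NF-κB and survival genes lie mostly below it, and B cell markers lie above it, with a median of 3.85 in H2R deficient cells.

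Lineage markers were read as a check of the dendritic cell label. Of 17 conventional dendritic cell markers tested, 12 rose and 2 fell in H2R deficient and 9 rose and 0 fell in wild-type cells, with medians of 2.97 and 1.53. That is 70.6% and 11.8% in H2R deficient cells, against 30% and 23.9% of all tested genes. In wild-type cells it is 52.9% and 0%, against 8.51% and 4.15%. In wild-type cells 3 rose when high-density library 2 was left out and 5 when low-density library 2 was. Bcl11a, a transcription factor that B cells also use, rose by 3.84 ± 0.30 (edgeR adjusted p = 0.000177) in H2R deficient and 2.42 ± 0.28 (edgeR adjusted p = 0.00412) in wild-type cells. H2-DMb2 and Cd74, of class II antigen presentation, which B cells share, rose by 3.99 ± 0.34 and 2.55 ± 0.28 in H2R deficient cells. In wild-type cells they rose by 2.08 ± 0.32 and 1.07 ± 0.26. B cell markers rose in the same libraries, with medians of 3.85 and 2.29, and their part in these rises was not tested. Itgax, which encodes CD11c and is shared with other myeloid cells, fell in H2R deficient cells (-1.33 ± 0.17, edgeR adjusted p = 0.000429) and was at -0.45 ± 0.17 in wild-type cells (edgeR adjusted p = 0.0919).

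Subset markers did not rise together. Of 13 cDC1 markers tested, 5 rose and 2 fell in H2R deficient and 1 rose and 1 fell in wild-type cells, with medians of 0.11 and 0.51. That is 38.5% rising and 15.4% falling in H2R deficient cells, where 30% of all tested genes rose and 23.9% fell, and 7.69% in each direction in wild-type cells, where 8.51% rose and 4.15% fell. In wild-type cells 0 rose and 0 fell when high-density library 2 or either low-density library was left out. In H2R deficient cells 3 rose when either high-density library or low-density library 1 was left out, and 1 fell when either H2R deficient low-density or either wild-type high-density library was. Xcr1, the chemokine receptor of cDC1, had 22 and 16 counts in H2R deficient low-density, 9 and 36 in wild-type low-density, 9 and 8 in H2R deficient high-density and 9 and 10 in wild-type high-density libraries. Clec9a, a lectin of cDC1, had 46 and 51 counts in H2R deficient low-density, 89 and 44 in wild-type low-density, 31 and 47 in H2R deficient high-density and 53 and 78 in wild-type high-density libraries, and neither gene passed in either genotype. Of 12 cDC2 markers, 5 rose and 1 fell in H2R deficient and 1 rose and 0 fell in wild-type cells, with medians of 1.10 and 0.88. That is 41.7% and 8.33% in H2R deficient and 8.33% and 0% in wild-type cells, beside the same all-gene shares. The 16 listed cDC2 markers summed to 625 and 605 CPM in H2R deficient and 715 and 730 CPM in wild-type low-density libraries. At high density the sums were higher, at 1180 and 1064 CPM in H2R deficient and 1056 and 1068 CPM in wild-type libraries. In H2R deficient cells 2 rose when high-density library 1 was left out and 3 when low-density library 1 was. In wild-type cells 0 rose when high-density library 2 or low-density library 2 was left out, and 2 when high-density library 4 was. Epcam, an adhesion molecule, rose by 4.06 ± 0.59 (edgeR adjusted p = 0.000723) in H2R deficient and 3.86 ± 0.64 (edgeR adjusted p = 0.0116) in wild-type cells.

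Of 14 plasmacytoid dendritic cell markers, 7 rose and 2 fell in H2R deficient and 5 rose and 0 fell in wild-type cells. That is 50% and 14.3% in H2R deficient cells, against 30% and 23.9% of all tested genes. In wild-type cells it is 35.7% and 0%, against 8.51% and 4.15%. In wild-type cells 0 rose when high-density library 2 or low-density library 2 was left out and 3 when high-density library 4 was, and in H2R deficient cells 1 fell when high-density library 1 was. Tcf4, a transcription factor of the lineage, rose by 2.47 ± 0.29 in H2R deficient and 1.400 ± 0.28 in wild-type cells, and Spib, which B cells share, by 4.12 ± 0.48 and 2.48 ± 0.46. Siglech, the lectin that defines these cells in mice, had 3 and 0 counts in H2R deficient low-density, 3 and 2 in wild-type low-density, 4 and 0 in H2R deficient high-density and 13 and 1 in wild-type high-density libraries. Cd207, which encodes langerin, and Cd209b had 0 counts in all 8 libraries.

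Markers of other cells also differed between densities. Of 13 monocyte markers 6 rose and 3 fell in H2R deficient, and 1 rose and 2 fell in wild-type cells. Of 17 macrophage markers 7 rose and 4 fell in H2R deficient, and 0 passed in wild-type cells. The rising shares in H2R deficient cells were 46.2% and 41.2%, against 41.7% of the 60 further mature dendritic cell genes and 30% of all tested genes. Of 13 B cell markers, 13 rose in H2R deficient and 12 in wild-type cells and 0 fell in either, with medians of 3.85 and 2.29. They summed to 904 and 1148 CPM in H2R deficient low-density, 513 and 234 CPM in wild-type low-density, 57.6 and 83.4 CPM in H2R deficient high-density and 71.7 and 79.2 CPM in wild-type high-density libraries. In wild-type cells 2 rose when high-density library 2 was left out and 6 when low-density library 2 was. Of 15 neutrophil markers 12 fell in H2R deficient and 3 in wild-type cells, and 0 rose in either. In wild-type cells 0 fell when high-density library 2 or low-density library 2 was left out and 1 when low-density library 4 was. The part of these cells in the values of the 10 genes was not tested.

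**Figure D5:**
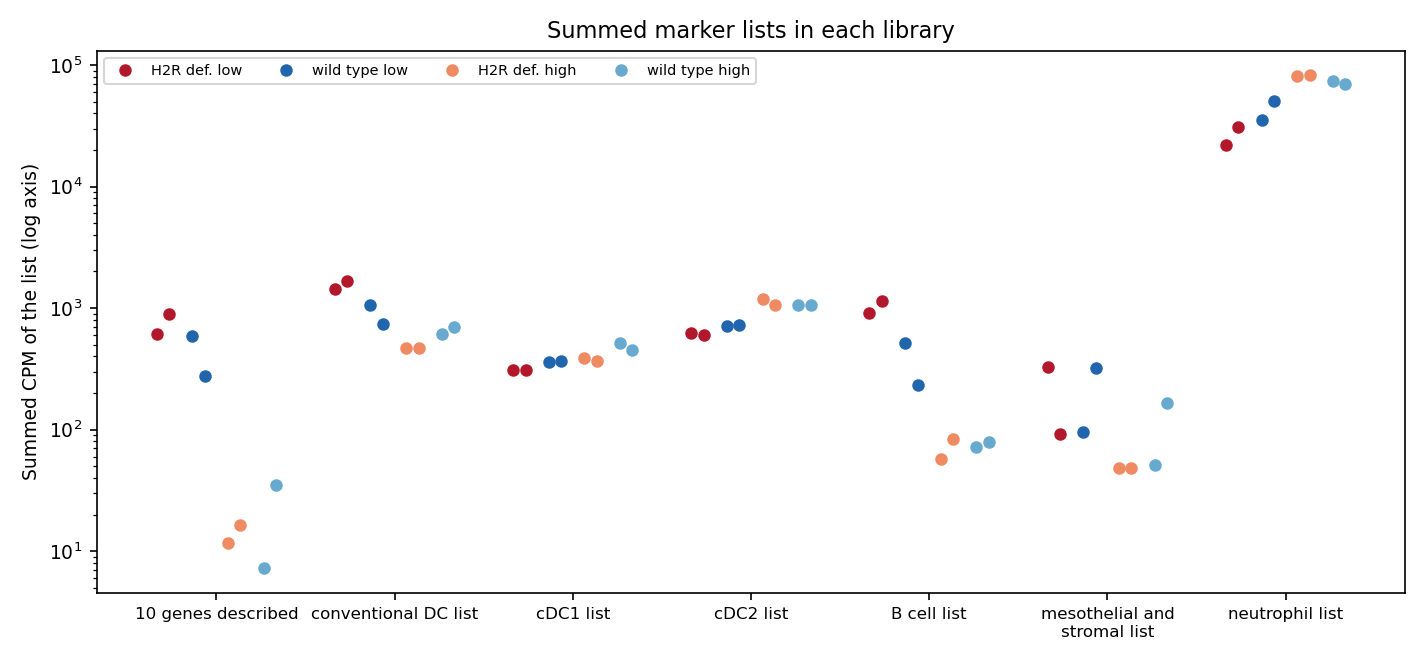
Summed CPM of the 10 genes and of 6 marker lists in each library (log axis), from H2R deficient low density on the left of each list to wild-type high density on the right. The 10 genes and the B cell markers are higher in low-density libraries, and neutrophil markers are lower.

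Net1, of the ranked genes whose mean reached 5 CPM in some group, had the profile over the 8 libraries most like the mean profile of the tested genes (Pearson r = 0.999). Left out of the ranking were genes without a symbol and those with predicted, clone, pseudogene, antigen receptor, histone or mitochondrial names. Tpm1, a tropomyosin, and Lonp1, a mitochondrial protease, followed at 0.995, then Strip2, Hmgn3 and Ktn1 at 0.994, and Zc3h7b and Serpinb9 at 0.993. The 8 libraries divide into low and high density. Of 14909 tested genes, those of the set included, 2235 had an r over 0.9, 879 over 0.95 and 25 over 0.99. An r over 0.9 is thus common here, and an r over 0.99 is not. Strip2 stood at 8.91 and 13.4 CPM in H2R deficient low-density, 8.74 and 4.11 CPM in wild-type low-density, 0.233 and 0.128 CPM in H2R deficient high-density and 0.0589 and 0.354 CPM in wild-type high-density libraries. Lonp1 stood at 16.6 and 17.6 CPM in H2R deficient low-density, 14.01 and 12.7 CPM in wild-type low-density, 5.72 and 6.31 CPM in H2R deficient high-density and 5.36 and 7.904 CPM in wild-type high-density libraries. Their density differences, 5.89 and 1.51 in H2R deficient and 4.92 and 1.01 in wild-type cells, show that a like profile came with unlike sizes.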

How the data were processed

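The authors deposited 1 table per library of unnormalized read counts by gene, with featureCounts columns and gene lengths. Software named in the submitters' processing notes was bcl2fastq (2.17.1.14), Trimmomatic (0.36), STAR (2.5.2b) and featureCounts from Subread (1.5.2), with the GRCm38 build. The strand setting, the treatment of multi-mapping reads and the annotation release were not found in the sources used here. Of 49315 identifiers, 48970 matched a symbol in the mouse annotation used here.

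edgeR 4.0.16 (R 4.3.3) fitted a robust quasi-likelihood model with 1 mean per group to all 8 libraries, after filterByExpr (14909 genes kept) and TMM scaling, leaving 4 residual degrees of freedom. Adjustment was by Benjamini-Hochberg over all tested genes, and an adjusted p under 0.05 passed. TPM used the gene lengths in the tables. Likeness is Pearson's r of log2 CPM with the mean of the z-scaled tested genes. The fit was tested on simulated data. Alternatives were limma 3.58.1, DESeq2 1.42.0, other filters and scalings, a replicate block and each library left out in turn.

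The 10 genes and all lists were chosen with earlier results of these data known. Named beside the 10 were up to 4 tested genes of each list with the lowest adjusted p in the H2R deficient density contrast, defining genes at or near 0, and the 8 genes most like the set. Itgax, Xcr1, Clec9a, Ccr4, Cx3cl1, Flt3l, Cd79a and Mrc1 were chosen after their values were seen. List symbols that matched no identifier were left out.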

Additional observations from a re-analysis of the deposited data

How the results depend on the processing

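With total counts only in place of TMM scaling, the median density difference of the 9 tested genes was 6.49 in H2R deficient cells, against 5.59. Of the mature dendritic cell lists 1 gene then fell there, against 21, and 25 rose and 1 fell in wild-type cells, against 16 and 9. With no filter on low counts 1 of the 9 genes was called between genotypes at low density and 1 in the interaction, against 0 and 0, and 5 listed genes were called higher and 2 lower at low density, against 0 and 0. Of 28092 genes then tested, 631 were called higher and 729 lower at low density, and 901 higher and 309 lower in the interaction. DESeq2 called 15 listed genes lower with low density in wild-type cells and 2 higher between genotypes at low density. Of the whole table it called 1379 genes lower in the first of these comparisons and 394 higher in the second. With only the 4 libraries of the comparison, 10 listed genes rose and 3 fell in wild-type cells. The cause of these shifts was not tested. Leaving out each library in turn gave medians of the 9 genes of 4.96 to 5.92 in H2R deficient and 4.07 to 5.76 in wild-type cells, 20 to 26 rising and 15 to 22 falling listed genes in H2R deficient cells, and 4 to 17 rising and 0 to 7 falling in wild-type cells.

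Some fitted genotype values turned sign. The interaction of Adcy6, -0.04, was 0.27 with total counts only, 0.023 with no filter and 0.12 with the replicate block, and ran from -1.59 to 1.03 as single libraries were left out. Ccr7 at high density was 0.046 with limma-voom. As single libraries were left out, the high-density difference ran from -1.396 to 0.73 for Ccl17, -1.77 to 1.11 for Ccl22, -1.21 to 1.49 for Ccr7, -1.77 to 0.47 for Flt3, -1.89 to 1.07 for Fscn1, -1.34 to 0.33 for Cacnb3, -0.37 to 2.24 for Adcy6 and -0.63 to 0.51 for Serpinb6b. The interaction ran from -0.10 to 2.02 for Ccl17, -0.13 to 2.76 for Ccl22, -0.51 to 2.19 for Ccr7 and -0.38 to 2.58 for Fscn1.

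Same-numbered libraries deviated together with r = 0.33 in H2R deficient and 0.15 in wild-type cells. With 2 pairs per genotype and no label that says what a number marks, they share only a number. With the replicate block the medians of the 9 genes were 5.59 and 4.63, 0 were called in the interaction, 26 listed genes rose and 22 fell in H2R deficient cells, and 17 rose and 12 fell in wild-type cells. Genotypes share only the number 2, so no block was fitted between them. Depth limited the high-density values, with 2 and 9 counts of Flt3 in H2R deficient and 7 and 7 in wild-type libraries.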

Other observations

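Markers of type 2 innate lymphoid cells and of NK cells were also higher in low-density libraries. Of 11 type 2 innate lymphoid cell markers, 9 rose in H2R deficient and 8 in wild-type cells and 0 fell in either, with medians of 3.18 and 2.91. That is 81.8% and 72.7% rising, where 30% and 8.51% of all tested genes rose. Rora, a transcription factor of these cells, stood at 7.28 and 7.13 CPM in H2R deficient low-density, 8.66 and 16.6 CPM in wild-type low-density, 0.292 and 0.893 CPM in H2R deficient high-density and 1.41 and 1.95 CPM in wild-type high-density libraries. It rose by 3.61 ± 0.49 (edgeR adjusted p = 0.000588) in H2R deficient and 2.91 ± 0.44 (edgeR adjusted p = 0.00886) in wild-type cells. Gata3, which T helper cells also use, rose by 2.93 ± 0.45 in H2R deficient and 3.198 ± 0.46 in wild-type cells. Of 12 NK cell markers, 10 rose in H2R deficient and 5 in wild-type cells and 0 fell in either. That is 83.3% and 41.7% rising, beside the same shares of all tested genes. Klrk1, which encodes NKG2D, rose by 2.87 ± 0.45 (edgeR adjusted p = 0.000956) in H2R deficient and 3.87 ± 0.50 (edgeR adjusted p = 0.00516) in wild-type cells. When wild-type high-density library 2 was left out, 1 marker of each list rose in wild-type cells, and when low-density library 2 was, 4 innate lymphoid and 2 NK cell markers did. Leaving out wild-type high-density library 4 left 5 innate lymphoid markers, and leaving out low-density library 4 left 3 NK cell markers.

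Of 8 other chemokine receptor genes, 6 rose and 1 fell in H2R deficient and 4 rose and 0 fell in wild-type cells, where 1 rose when high-density library 2 was left out and 2 when low-density library 2 was. Over all tested genes 30% rose and 23.9% fell in H2R deficient, and 8.51% rose and 4.15% fell in wild-type cells. Ccr2, the monocyte receptor for CCL2, stood at 33.2 and 31.4 CPM in H2R deficient low-density, 48.1 and 46.1 CPM in wild-type low-density, 5.25 and 3.83 CPM in H2R deficient high-density and 18.3 and 10.3 CPM in wild-type high-density libraries. Its genotype difference at low density was -0.55 ± 0.26 (edgeR adjusted p = 0.261), against 0.98 ± 0.71 (edgeR adjusted p = 0.46) for Ccr7, and neither passed. At high density Ccr2 was at -1.65 ± 0.29 (edgeR adjusted p = 0.0586). Of the 8 receptor genes 1 was called lower in H2R deficient cells at high density, as were 0.188% of all tested genes.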
